A study of Mus musculus with 8 samples.

Results

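Tmem176a and Tmem176b are a pair of neighbouring genes of mouse chromosome 6 that face away from each other and overlap at their starts. Their 2 rows were taken from a table of 35275 genes by the Ensembl identifiers ENSMUSG00000023367 (Tmem176a) and ENSMUSG00000029810 (Tmem176b). The pair was selected on its FPKM values, which are lower with MPC vesicles at 12 h and 24 h, so its levels and differences are given as a description with no test.

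RNA was sequenced from multinucleated muscle cells (myotubes) formed in horse serum medium out of C57BL6/J mouse myogenic progenitor cells (MPCs) in primary culture. Myotubes received extracellular vesicles (EVs), membrane particles released by cells, either from MPCs (MPC EV 12 h and MPC EV 24 h) or from growth medium (control 12 h and control 24 h), and the question was how MPC EVs change gene expression. Each of the 4 groups had 2 libraries. Untreated myotubes are not among the samples, and lower RNA with MPC EVs and higher RNA with the control preparation cannot be told apart. All cells carried the same strain background, and both preparations were made with a polymer-based method.

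The unit is FPKM, the fragments of a gene per kilobase of its length and per mega-fragment of its library, and levels are mean ± SD over n = 2 libraries. Depth read back from the values was 16.32 to 20.19 mega-fragments per library. Differences are on the log2(FPKM + 0.5) scale with their standard error (SE) from limma, fitted to the 10981 genes whose mean over the libraries was 1 FPKM or more. A call is an adjusted p under 0.05 after Benjamini-Hochberg adjustment over these genes. Whether partner libraries are separate cultures is not stated, and p-values then measure only the spread between libraries, which may be technical. Partner libraries correlated at 0.992 to 0.996 in 3 groups and at 0.947 in control 12 h, whose replicate 2 stands apart, so the differences at 12 h of the pair and of the called list members are also given without it. In bulk RNA, fewer cells of a type and less RNA per cell cannot be told apart.

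Tmem176a and Tmem176b encode small proteins with several membrane-spanning segments, distantly related to the MS4A family that includes the B cell protein CD20. They sit mainly in membranes inside the cell, around the Golgi apparatus and endosomes, and have been described as cation channels. They are best known from dendritic cells and macrophages, where they take part in the handling of antigen by MHC class II compartments and where Tmem176b restrains the NLRP3 inflammasome, and from lymphoid cells of the interleukin-17 type.

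In GENCODE vM21 (GRCm38), Tmem176a lies on the plus strand of chromosome 6 from 48840919 to 48847071 with 7 annotated transcripts. Tmem176b lies on the minus strand from 48833818 to 48841496 with 12 transcripts. The gene bodies share 578 bp, from 48840919 to 48841496, but their exons share only 81 bp, which is 2.1% of the exonic bases of Tmem176a and 3.4% of those of Tmem176b. Of the transcripts, 1 of 7 of Tmem176a and 5 of 12 of Tmem176b touch an exon of the other gene. RefSeq draws the Tmem176b body from 48833811 to 48845948, a span that holds the whole RefSeq body of Tmem176a, 48841483 to 48845364. Because the libraries were not strand-specific, a fragment from the shared bases cannot be assigned to its strand of origin.

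**Figure D1:**
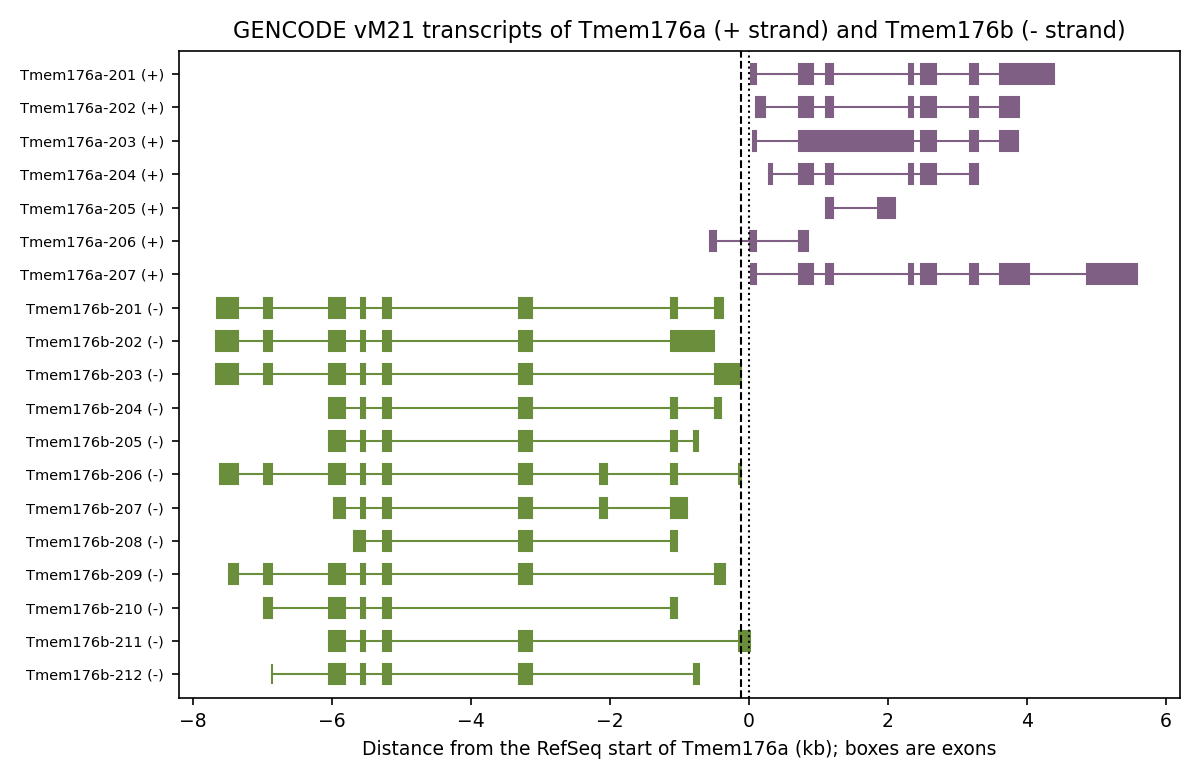
Exons (boxes) and introns (lines) of the 7 Tmem176a and 12 Tmem176b transcripts against distance in kb from the RefSeq start of Tmem176a (dotted line, with the Tmem176b start dashed). The genes run in opposite directions, and the starts drawn, the nearest to each other of those listed, are 109 bp apart. Of the transcripts, 1 of 7 of Tmem176a and 5 of 12 of Tmem176b touch an exon of the other gene.

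RefSeq windows list 2 starts of Tmem176a and 3 of Tmem176b, and the 2 nearest to each other were chosen. These starts, 48841483 for Tmem176a and 48841374 for Tmem176b, are 109 bp apart and head to head. Their closeness and the overlap of their windows follow in part from this choice. The 250 bp upstream of each start are shown here because the windows of 2 genes that moved together interlock: they share 108 bp, chr6:48841375-48841482, read on opposite strands. Sequences are 5′ to 3′ from RefSeq (GRCm38.p6), chr6:48841233-48841482 on the plus strand for Tmem176a and chr6:48841375-48841624 on the minus strand for Tmem176b. Capitals mark matches on either strand to the NF-κB consensus and to the ETS and PU.1 core AGGAAGT, whose reverse complement reads ACTTCCT.
Tmem176a: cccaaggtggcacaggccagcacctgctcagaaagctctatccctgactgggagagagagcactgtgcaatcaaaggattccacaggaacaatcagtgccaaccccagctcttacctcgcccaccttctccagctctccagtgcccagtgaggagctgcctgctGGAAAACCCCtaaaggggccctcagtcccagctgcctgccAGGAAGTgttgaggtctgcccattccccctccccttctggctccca
Tmem176b: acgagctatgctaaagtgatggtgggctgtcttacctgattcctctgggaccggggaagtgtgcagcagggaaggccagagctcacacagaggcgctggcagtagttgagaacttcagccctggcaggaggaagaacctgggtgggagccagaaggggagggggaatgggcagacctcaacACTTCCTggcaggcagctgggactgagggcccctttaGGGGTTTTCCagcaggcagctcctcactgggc
Both marked matches lie in the shared stretch, so each is the same set of bases read from both sides. The NF-κB match covers 48841397 to 48841406 and the ETS match covers 48841437 to 48841443.

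Among all 32851 RefSeq windows of this length, 7.3% held the NF-κB consensus and 7.7% held AGGAAGT on either strand. An E-box, CANNTG, the letters bound by myogenic factors, was found at 2 places in the Tmem176a window and at 1 in the Tmem176b window, and 66.2% of all windows held one. No match was found for the AP-1 letters TGANTCA (6.7% of windows), the TATA box TATAAA (12.4%) or the GC box GGGCGG (32.7%). The windows were GC-rich, at 59.6% for Tmem176a and 60.4% for Tmem176b, against a median of 52.4% over all windows. A match is a description of letters, not a bound site.

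Both genes were well expressed in control myotubes and much lower after MPC EVs. Tmem176a had 11.3 and 12.8 FPKM in the MPC EV 12 h libraries, against 52.6 and 55.7 FPKM in the control 12 h libraries. At 24 h, Tmem176a had 8.06 and 11.1 FPKM with MPC EVs, against 36.2 and 32.0 FPKM in control. Every MPC EV library was below every control library, at either time.

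Tmem176b, the more abundant member, showed the same order of groups. It had 25.7 and 26.8 FPKM in the MPC EV 12 h libraries, against 122 and 139 FPKM in the control 12 h libraries. At 24 h it had 19.9 and 20.4 FPKM with MPC EVs, against 76.3 and 64.4 FPKM in control. The groups again did not overlap, and the spread between partners was widest in the control libraries.

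**Figure D2:**
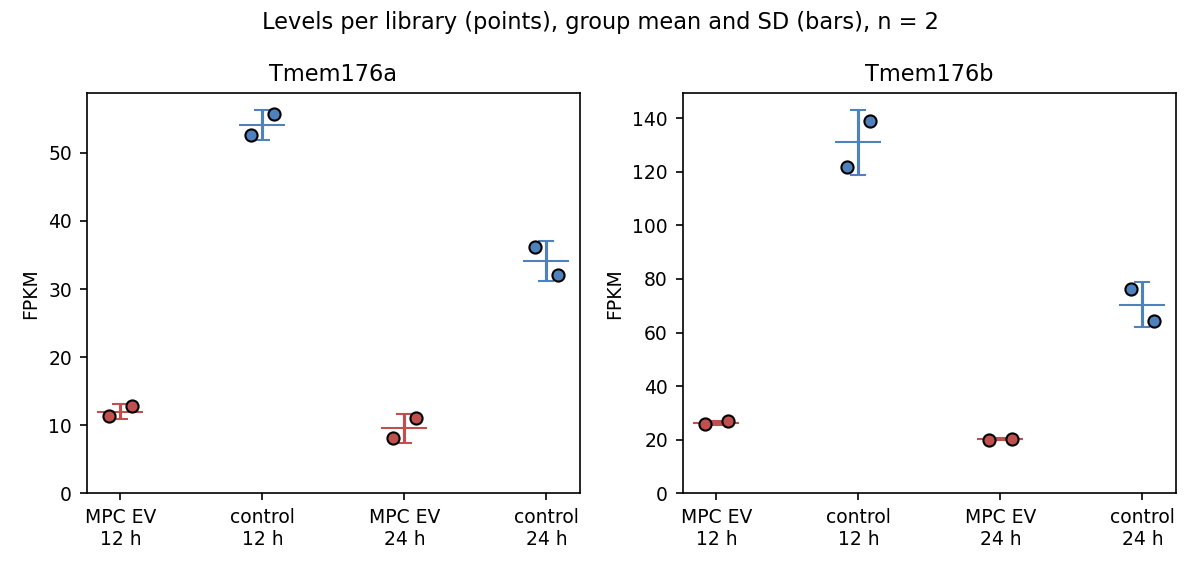
FPKM of Tmem176a (left panel) and Tmem176b (right panel) in each library (points), with group mean and SD (bars, n = 2), for MPC EV and control at 12 h and 24 h. In both panels the 4 MPC EV libraries lie below the 4 control libraries, and control is higher at 12 h than at 24 h.

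The group means of Tmem176a were 12.0 ± 1.08 FPKM for MPC EV 12 h, 54.1 ± 2.19 for control 12 h, 9.57 ± 2.13 for MPC EV 24 h and 34.1 ± 2.94 for control 24 h. Those of Tmem176b were 26.3 ± 0.790 FPKM for MPC EV 12 h, 131 ± 12.1 for control 12 h, 20.1 ± 0.348 for MPC EV 24 h and 70.3 ± 8.41 for control 24 h. The order of both genes was the same, with control 12 h highest, then control 24 h, MPC EV 12 h and MPC EV 24 h. The lowest neighbours in that order, MPC EV 24 h and MPC EV 12 h, nearly met for Tmem176a: its highest MPC EV 24 h library had 11.1 FPKM and its lowest MPC EV 12 h library 11.3 FPKM, a gap below the SD of either group. For Tmem176b all neighbours in the order were farther apart than their SDs.

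These levels rest on many fragments. Tmem176a was read by 208 and 250 fragments in the MPC EV 12 h libraries and by 1048 and 1176 in the control 12 h libraries. At 24 h it was read by 140 and 212 with MPC EVs, against 759 and 688 in control. The thinnest value, the 140 fragments of MPC EV 24 h replicate 1, has an exact 95% Poisson interval of 117.8 to 165.2, far from the control counts. Tmem176b had between 542 fragments in MPC EV 24 h replicate 1 and 4622 in control 12 h replicate 2. Such intervals cover counting error only.

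In control myotubes the pair stood high among expressed genes. Tmem176b exceeded 95.4% of tested genes in control 12 h and 91.1% in control 24 h, and with MPC EVs it exceeded 77.2% at 12 h and 69.1% at 24 h. Tmem176a exceeded 56.2% of tested genes in MPC EV 12 h, against 88.1% in control 12 h. At 24 h Tmem176a exceeded 48.3% with MPC EVs, against 81.3% in control. With MPC EVs Tmem176a thus remained at the level of mid-range genes and Tmem176b above that level, and neither reached 0.

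At 12 h, the FPKM mean with MPC EVs was 0.223 of control for Tmem176a, a drop of 77.7%, and 0.201 of control for Tmem176b, a drop of 79.9%. The log2 difference was -2.12 ± 0.15 (SE) for Tmem176a and -2.29 ± 0.10 for Tmem176b, against a median of -0.12 over all tested genes. Without control 12 h replicate 2 the differences were -2.08 and -2.20. From the most negative, Tmem176a held rank 10 and Tmem176b rank 7 of 10981 genes. As context for groups that do not overlap, 45.0% of tested genes had both MPC EV 12 h libraries below both control 12 h libraries, so the absence of overlap is common at this time.

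At 24 h, the mean with MPC EVs was 0.281 of control for Tmem176a, a drop of 71.9%, and 0.286 of control for Tmem176b, a drop of 71.4%. The log2 differences were -1.80 ± 0.15 for Tmem176a and -1.77 ± 0.10 for Tmem176b, against a median of -0.03 over all tested genes. Tmem176a held rank 6 and Tmem176b rank 8 from the most negative. At this time 30.2% of tested genes had both MPC EV libraries below both control libraries. The genes whose difference was at least as negative as that of the pair's less changed member at each time were 3: Mmp9, Tmem176a and Tmem176b. The pair was itself selected as lower. The ranks and this count also rest on the 0.5 FPKM added before the log, which shrinks the differences of genes at low levels. At 24 h the caspase gene Casp4 had a mean of 0.335 FPKM with MPC EVs and 2.31 FPKM in control. Its FPKM ratio fell further than the pair's, yet its difference was -1.75, outside this count.

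**Figure D3:**
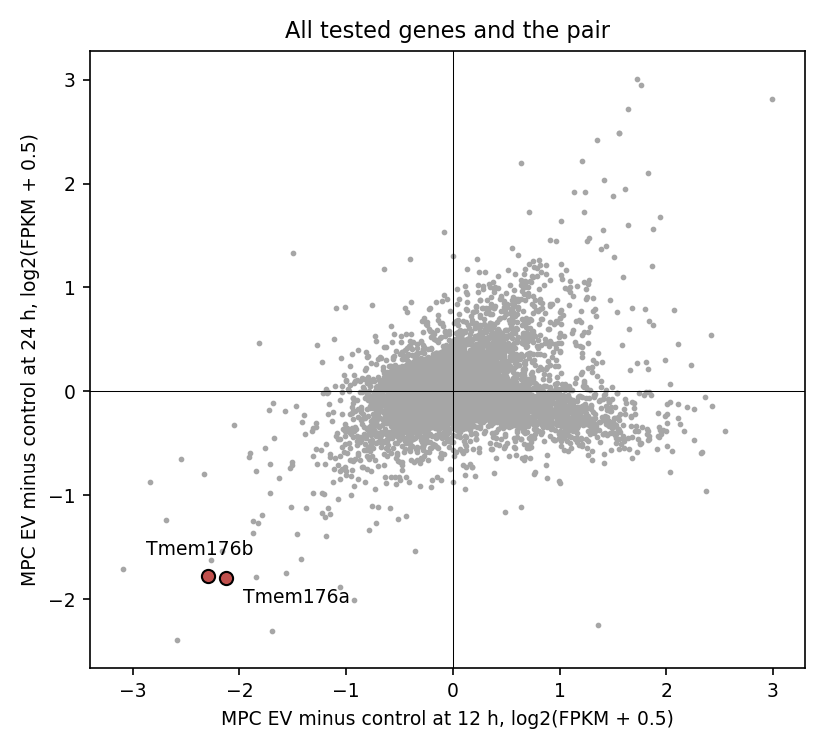
Each point is 1 of 10981 tested genes, with the MPC EV minus control difference at 12 h on the x axis and at 24 h on the y axis, both in log2(FPKM + 0.5). Tmem176a and Tmem176b (red) lie side by side near the lower left end, at -2.12 and -2.29 at 12 h and at -1.80 and -1.77 at 24 h.

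The 24 h difference minus the 12 h difference was 0.33 ± 0.22 (SE) for Tmem176a and 0.52 ± 0.14 for Tmem176b, against a median of 0.11 over all tested genes. Without control 12 h replicate 2 these were 0.29 and 0.42. No tested gene was called for this difference (0 of 10981 with limma, percent called 0, with 2014 at an unadjusted p under 0.05, and 0 with voom on recovered fragments). Without control 12 h replicate 1, 3668 genes were called, and without control 12 h replicate 2, 3.

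Time alone also separated the groups. Control 24 h minus control 12 h was -0.66 ± 0.15 for Tmem176a and -0.89 ± 0.10 for Tmem176b, and 30.9% of tested genes had both control 24 h libraries below both control 12 h libraries. With MPC EVs, 24 h minus 12 h was -0.33 ± 0.15 for Tmem176a and -0.38 ± 0.10 for Tmem176b, where 23.6% of tested genes had both later libraries below both earlier ones. For Tmem176a this value rests on the library used: it was -0.11 without MPC EV 24 h replicate 1 and -0.55 without MPC EV 24 h replicate 2. The difference of the pair between 24 h and 12 h in control was therefore smaller than the difference between MPC EVs and control at either time.

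The members kept nearly the same proportion to each other. Over the 8 libraries their log2 levels correlated at 0.992, a description over points that share library, depth and, in part, exons. The ratio of Tmem176a to Tmem176b in FPKM was 0.458 ± 0.027 at 12 h with MPC EVs and 0.415 ± 0.022 in control. At 24 h it was 0.475 ± 0.098 with MPC EVs and 0.486 ± 0.016 in control. Single libraries ranged from 0.399 to 0.544.

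Counted in fragments, Tmem176a made up 21.8% (exact 95% binomial interval 19.3% to 24.6%) and 23.3% (20.8% to 26.0%) of the pair in the MPC EV 12 h libraries. The control 12 h libraries gave 21.5% (20.4% to 22.7%) and 20.3% (19.3% to 21.3%). The MPC EV 24 h libraries gave 20.5% (17.6% to 23.8%) and 25.7% (22.8% to 28.9%), and the control 24 h libraries gave 23.2% (21.8% to 24.7%) and 24.1% (22.5% to 25.7%). The widest gap between partners was in MPC EV 24 h, and the intervals of MPC EV and control libraries overlapped at both times. Between the times in control, the interval of control 12 h replicate 2 lay below those of both control 24 h libraries. That of control 12 h replicate 1 overlapped both. How fragments from exons common to both genes were counted is not stated, and their part in these shares was not tested.

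**Figure D4:**
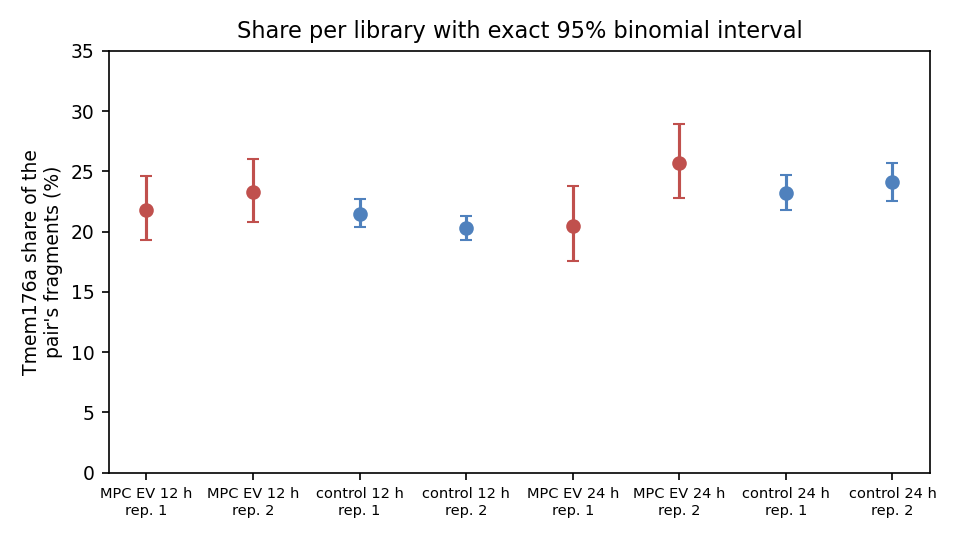
Share of the pair's fragments counted for Tmem176a in each library, in percent, with exact 95% binomial intervals (bars), MPC EV in red and control in blue. The shares run from 20.3% to 25.7% while the pair's total ran from 682 to 5798 fragments.

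Within 100 kb of the pair no other gene reached the level for testing, while farther out some did. Within 500 kb on either side the table held 33 other genes, of which 11 were expressed highly enough to be tested and 9 were at 0 in every library. The 8 genes within 100 kb were led by Aoc1, a diamine oxidase, at a mean of 0.0183 FPKM. The 8 Gimap genes, a cluster of GTPases of lymphocytes beside the pair, had means of at most 0.0609 FPKM, and 3 of them were at 0 in every library.

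The nearest tested genes were Zfp775, 210.6 kb below, and Gpnmb, 189.5 kb above. At 12 h, limma called 2 of the 11 tested neighbours lower and 0 higher, against 14.3% lower and 4.36% higher of all tested genes. Gpnmb, a glycoprotein of lysosomes and cell surface, had 8.90 ± 0.935 FPKM in MPC EV 12 h and 13.4 ± 0.947 FPKM in control 12 h, a log2 difference of -0.57 ± 0.10 (adjusted p = 0.0161). Repin1, a zinc finger protein, differed by -0.45 ± 0.09 (adjusted p = 0.0237, or 0.0524 with quantile normalization). Gpnmb differed by -0.50 (adjusted p = 0.0198) and Repin1 by -0.34 (adjusted p = 0.0274) without control 12 h replicate 2. At 24 h limma called 0 of the 11, against 0.956% lower and 2.61% higher of all tested genes. The neighbours' differences ran from -0.57 to 0.22 at 12 h and from -0.28 to 0.34 at 24 h, all smaller in size than those of the pair. Without MPC EV 12 h replicate 1, 0 neighbours were called at 12 h, and without control 12 h replicate 1, 3.

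**Figure D5:**
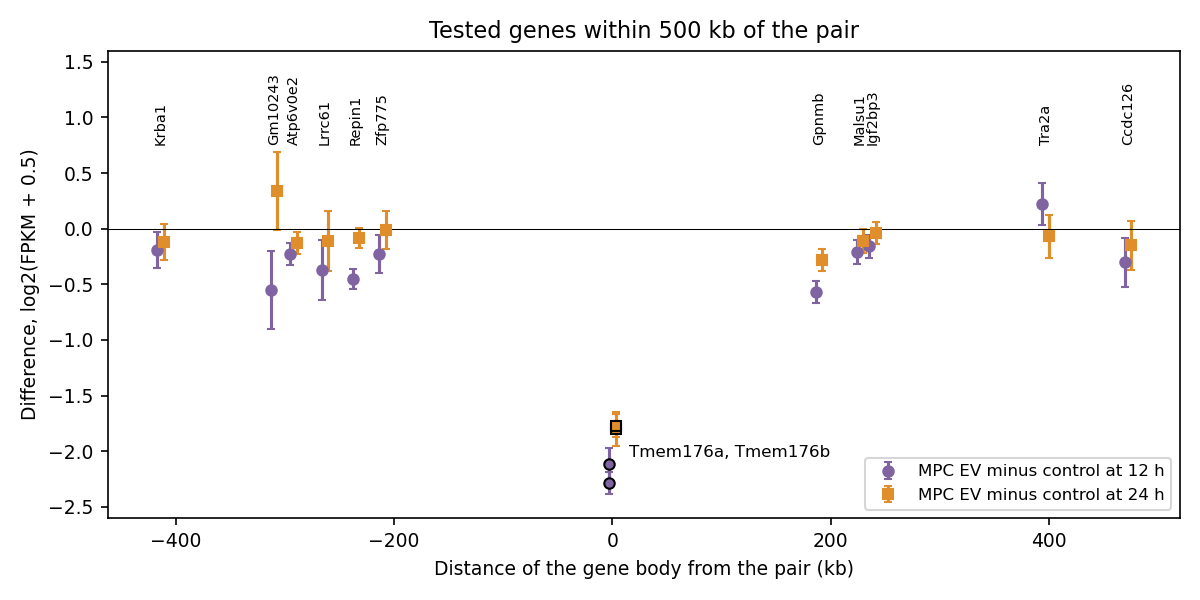
MPC EV minus control differences in log2(FPKM + 0.5) at 12 h (circles) and 24 h (squares) with SE, against distance in kb from the pair, for the 11 tested genes within 500 kb and for Tmem176a and Tmem176b (outlined, at distance 0). The pair lies between -1.77 and -2.29, and every neighbour lies between -0.57 and 0.34.

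The MS4A relatives of the pair, and Nlrp3 and Casp1 of the inflammasome, were near the floor in these myotubes. Of 16 members of the MS4A family, 8 were at 0 in every library and 0 reached the level for testing, and their summed level was at most 0.207 FPKM in MPC EV libraries and at most 0.576 FPKM in control libraries. The highest were Ms4a10, Ms4a6d and Ms4a8a, none with more than 6 fragments in a library. Nlrp3, the sensor of the inflammasome that Tmem176b restrains, was read by 1 fragment in MPC EV 12 h replicate 2, by 1 in control 24 h replicate 2 and by none in the other 6 libraries. Casp1, the caspase that this complex activates, had at most 3 fragments in MPC EV libraries and at most 6 in control libraries.

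Of 20 inflammasome genes, 7 were tested. At 12 h, where 18.6% of all tested genes were called, 4 were lower with MPC EVs, 0 were higher and 3 did not pass, with a median difference of -0.56 against -0.12 over all tested genes. At 24 h, where 3.57% of all tested genes were called, 1 was lower, 0 were higher and 6 did not pass, with a median of -0.10 against -0.03. Nek7, which did not pass at 12 h, differed by 0.79 ± 0.35 (adjusted p = 0.153), or 0.18 without control 12 h replicate 2. Pycard was below the level for testing and had higher means with MPC EVs. These were 1.56 ± 0.289 FPKM against 0.832 ± 0.112 in control at 12 h, and 0.729 ± 0.0793 against 0.358 ± 0.107 at 24 h. Il1b, also untested, went the other way at 12 h, with 0.760 ± 0.232 FPKM against 1.23 ± 0.104.

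Gsdmd, whose cleaved protein forms the pores of pyroptosis, was lower at both times. It had 2.21 ± 0.0447 FPKM in MPC EV 12 h and 4.71 ± 0.0753 FPKM in control 12 h, a log2 difference of -0.94 ± 0.13 (adjusted p = 0.00948). At 24 h it had 2.29 ± 0.227 FPKM with MPC EVs and 4.24 ± 0.671 FPKM in control (-0.76 ± 0.13, adjusted p = 0.0361). Casp4, the caspase of the noncanonical pathway that cleaves gasdermin D, was close to 0 with MPC EVs at 12 h, with 3 and 1 fragments in the MPC EV 12 h libraries and 72 and 22 in the control 12 h libraries (-1.56 ± 0.37, adjusted p = 0.0375). At 24 h Casp4 had 9 and 13 fragments with MPC EVs and 87 and 88 in control, and its difference of -1.75 ± 0.37 did not pass (adjusted p = 0.0677).

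Panx1, a membrane channel that releases ATP, had 21.3 ± 0.138 FPKM in MPC EV 12 h and 32.1 ± 3.02 FPKM in control 12 h (-0.58 ± 0.10, adjusted p = 0.0158). Casp8, an initiator caspase of cell death, had 4.21 ± 0.109 FPKM in MPC EV 12 h and 6.44 ± 0.321 FPKM in control 12 h (-0.56 ± 0.11, adjusted p = 0.0226). Without control 12 h replicate 2, the 12 h differences were -0.93 for Gsdmd (adjusted p = 0.0121), -2.17 for Casp4 (adjusted p = 0.00157), -0.48 for Panx1 (adjusted p = 0.0159) and -0.61 for Casp8 (adjusted p = 0.0239). With median-ratio scaling at 12 h, Casp8 (adjusted p = 0.0541) and Casp4 (adjusted p = 0.0544) did not pass, and with quantile normalization Gsdmd did not pass at 24 h (adjusted p = 0.0691). At 24 h, with no library left out, the differences were 0.10 (adjusted p = 0.786) for Panx1 and -0.07 (adjusted p = 0.922) for Casp8.

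Of 16 genes of the class II compartment, 8 were tested. At 12 h, 2 were lower, 0 were higher and 6 did not pass, with a median of -0.08 against -0.12 over all tested genes, of which 14.3% were lower. At 24 h, 0 passed (3.57% of all tested genes were called) and the median was -0.03 against -0.03. The lysosomal protease Ctsd had 532 ± 5.09 FPKM in MPC EV 12 h and 724 ± 32.9 FPKM in control 12 h (-0.44 ± 0.06, adjusted p = 0.00793). Cd63, a tetraspanin of late endosomes and of exosomes, had 1147 ± 54.7 FPKM in MPC EV 12 h and 1437 ± 51.7 FPKM in control 12 h (-0.33 ± 0.07, adjusted p = 0.0261). These differences were -0.40 (Ctsd, adjusted p = 0.00591) and -0.29 (Cd63, adjusted p = 0.0413) without control 12 h replicate 2. Both serve lysosomes and endosomes of most cells, and Cd63 did not pass with median-ratio scaling (adjusted p = 0.119). The class II genes H2-Aa, H2-Ab1 and H2-Eb1 were not tested, with at most 0.251 FPKM in any library. H2-DMa was tested and did not pass at either time.

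Of 12 genes linked to lymphoid cells of the interleukin-17 type, 3 were tested. At 12 h, 2 were lower, 0 were higher and 1 did not pass, with a median of -0.51, against 14.3% lower and a median of -0.12 over all tested genes. At 24 h, 1 was lower, 0 were higher and 2 did not pass, with a median of -0.73, against 0.956% lower and a median of -0.03. Il1r1, the interleukin-1 receptor, had 2.46 ± 0.446 FPKM in MPC EV 24 h and 6.41 ± 0.0499 FPKM in control 24 h (-1.23 ± 0.13, adjusted p = 0.00855), and at 12 h its difference was -0.51 ± 0.13 (adjusted p = 0.0421, or 0.109 with median-ratio scaling). Ahr, the aryl hydrocarbon receptor, differed by -0.84 ± 0.17 at 12 h (adjusted p = 0.0234) and by -0.73 ± 0.17 at 24 h (adjusted p = 0.0808). At 12 h without control 12 h replicate 2, the difference was -0.58 for Il1r1 (adjusted p = 0.0434) and -1.03 for Ahr (adjusted p = 0.00913).

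Over the neighbourhood, these lists and the cell type markers together, 20 members were called at 12 h and 10 at 24 h. The tested members were 11 neighbours and 7 inflammasome, 8 class II and 3 interleukin-17 genes. To these came 8 myotube, 8 progenitor, 4 fibroblast, 3 pericyte and smooth muscle, 1 macrophage and 1 lymphocyte marker. From the MS4A and endothelial lists 0 were tested. Of all tested genes, 18.6% were called at 12 h and 3.57% at 24 h, and their number also depended on single libraries. The counts of list members depended on single libraries as follows. At 12 h they were 2 without MPC EV 12 h replicate 1, 8 without its partner, 9 without any 1 library of 24 h, 29 without control 12 h replicate 1 and 21 without control 12 h replicate 2. At 24 h they were 6 without either MPC EV 12 h library, 18 without either control 12 h library, 3 and 4 without MPC EV 24 h replicates 1 and 2, and 2 and 3 without control 24 h replicates 1 and 2. In the inflammasome, class II and interleukin-17 lists, 4, 2 and 2 members were called at 12 h with all libraries and also without control 12 h replicate 2, 0, 0 and 0 without MPC EV 12 h replicate 1, and 5, 5 and 3 without control 12 h replicate 1.

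The cells carried the markers of muscle. All 8 myotube markers were tested, and 4 were higher and 0 lower at 12 h, with a median of 0.88, against 4.36% higher and a median of -0.12 over all tested genes. At 24 h likewise 4 were higher and 0 lower, with a median of 0.73, against 2.61% higher and a median of -0.03. Their summed level was 11136 to 11587 FPKM in MPC EV 12 h against 9261 to 10665 in control 12 h, and 9380 to 10630 FPKM in MPC EV 24 h against 6889 to 7236 in control 24 h. The myotube markers called at 12 h were Myh3, Myh8, Actn2 and Ttn. Without control 12 h replicate 2, their 12 h differences were 1.59, 1.52, 1.79 and 1.21 in that order. With all libraries the difference of Ttn was larger, at 1.99, and those of Myh3, Myh8 and Actn2 were smaller. Of 8 progenitor markers, 2 were higher and 1 lower at 12 h, and 2 were higher and 0 lower at 24 h, where 18.6% of all tested genes were called at 12 h and 3.57% at 24 h. Those called at 12 h differed by 0.29 (Cdh15), 0.57 (Megf10) and -0.56 (Vcam1), and by 0.35, 0.37 and -0.58 without control 12 h replicate 2.

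The cells in which the pair is best known were scarcely seen. Of 18 macrophage and dendritic cell markers, 1 was tested and 0 were called at either time, and 1 (Flt3) was at 0 in every library. Ptprc, Csf1r, Adgre1 and Itgax, which define these cells, had at most 0.0737 FPKM in any library, and Cd68 had 0.521 to 1.74 FPKM. The summed level of the list was 5.51 to 5.93 FPKM in MPC EV 12 h against 4.52 to 6.22 in control 12 h, and 4.58 to 6.86 FPKM in MPC EV 24 h against 4.84 to 6.55 in control 24 h. MPC EV and control libraries overlapped in this sum at both times. The highest means over the libraries in the list were those of Laptm5, Zbtb46, Cd68 and Cd74. Cd74, the invariant chain of MHC class II, had 11 and 6 fragments in the MPC EV 24 h libraries and 51 and 26 in the control 24 h libraries. The part of such cells in the pair's difference was not tested.

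Of 8 fibroblast markers, 4 were tested. At 12 h, 2 were lower, 0 higher and 2 did not pass, with a median of -0.41, against 14.3% lower and a median of -0.12 over all tested genes. At 24 h, 1 was lower, 0 higher and 3 did not pass, with a median of -0.46, against 0.956% lower and a median of -0.03. Col1a1, a chain of type I collagen, differed by -0.89 ± 0.16 at 12 h (adjusted p = 0.0196), and Col1a2 differed by -0.63 ± 0.13 at 12 h (adjusted p = 0.0243) and by -0.88 ± 0.13 at 24 h (adjusted p = 0.0213). Without control 12 h replicate 2, the 12 h differences were -0.89 for Col1a1 (adjusted p = 0.0218) and -0.57 for Col1a2 (adjusted p = 0.0348). The list's summed level was 27.7 to 33.3 FPKM in MPC EV 12 h against 39.9 to 43.2 in control 12 h, and 36.9 to 37.6 FPKM in MPC EV 24 h against 51.0 to 54.0 in control 24 h. Pdgfra, the defining receptor of these cells, was below the level for testing, with 0.863 ± 0.0349 FPKM in MPC EV 12 h and 0.739 ± 0.126 FPKM in control 12 h, and 1.05 ± 0.254 FPKM in MPC EV 24 h and 0.821 ± 0.0625 FPKM in control 24 h. Its means were the higher ones with MPC EVs. The part of fibroblasts in the pair's difference was likewise not tested.

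Among other cell types, 1 of 8 lymphocyte markers was tested: Gata3, a transcription factor not limited to these cells. Gata3 differed by -0.85 at 12 h (adjusted p = 0.0228) and by -0.73 at 24 h (adjusted p = 0.0798). Without control 12 h replicate 2 its 12 h difference was -0.73. Of all tested genes, 14.3% were called lower at 12 h and 0.956% at 24 h. Of 6 endothelial markers 0 were tested, with sums of at most 1.01 FPKM. Of 6 pericyte and smooth muscle markers 3 were tested, and 0 of these were called at 12 h. At 24 h, 1 was lower and 2 did not pass. The lower one was Notch3, with a difference of -0.66 (adjusted p = 0.0369, or 0.121 with quantile normalization).

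The genes whose pattern was most like the pair were ranked by Pearson's correlation of log2 levels with the mean of the pair over the 8 libraries, among 10231 genes that were tested and whose symbol is not that of a predicted gene, clone, pseudogene or mitochondrial transcript. With 4 groups of 2 libraries, these are descriptions of few points that share the treatment. A correlation above 0.95 was reached by 53 genes and one below -0.95 by 24. Mmp9, the gelatinase that degrades extracellular matrix, came first at 0.997. It had 0.436 and 0.567 FPKM in the MPC EV 12 h libraries against 5.40 and 5.60 in the control 12 h libraries, and 0.0772 and 0.193 FPKM in the MPC EV 24 h libraries against 2.99 and 2.65 in the control 24 h libraries.

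Next came Prrx2, a homeobox factor of mesenchyme, at 0.993. Prrx2 had 20.3 ± 1.88 FPKM in MPC EV 12 h and 56.7 ± 0.312 FPKM in control 12 h, and 14.8 ± 1.93 FPKM in MPC EV 24 h and 38.9 ± 0.102 FPKM in control 24 h, so it repeated the order of all 4 groups with smaller folds. The others were Sh3d19 (0.992), the choline transporter Slc44a1 (0.989), the Golgi GTPase Arl1 (0.987), Gripap1 (0.986), the endoplasmic reticulum-bound transcription factor Creb3l1 (0.984) and the somite transcription factor Dmrt2 (0.984). Their sizes varied widely: the 12 h difference was -1.79 ± 0.20 for Dmrt2 (adjusted p = 0.00614), and -0.17 ± 0.06 for Gripap1, which did not pass (adjusted p = 0.1). Ranked by Spearman's rho instead, 1 of these 8 remained among the first 8.

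The opposite pattern was led by the deubiquitinase Usp28 (-0.996), the lipid raft protein Rftn1 (-0.992), the thrombin receptor F2r (-0.987) and the calmodulin-dependent kinase Camk2d (-0.985). F2r had 46.0 ± 2.33 FPKM in MPC EV 12 h and 23.2 ± 0.374 FPKM in control 12 h, and 47.4 ± 1.09 FPKM in MPC EV 24 h and 29.6 ± 1.32 FPKM in control 24 h (log2 differences 0.97 and 0.67, adjusted p = 0.00245 and 0.00634). Usp28 differed by 0.75 ± 0.07 at 12 h (adjusted p = 0.00383) and by 0.59 ± 0.07 at 24 h (adjusted p = 0.0118).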

How the data were processed

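FPKM values were deposited by the authors as a single table with a column per library. The submitters' processing notes name HISAT2, the mm10 build and DESeq2 (as version 2), without their roles. Per the labels' protocols libraries were paired-end and not strand-specific. No counting tool or annotation release is given in the sources used here. Symbols, coordinates and transcripts came from GENCODE vM21, and upstream windows from RefSeq.

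Each gene's FPKM was a whole number of fragments times a step set by gene length and library total. For all 10981 tested genes (100.0%) the 8 values came out whole within 0.005 fragments, at 16.32 to 20.19 mega-fragments per library. The smallest lengths that did so were 1064 bp for Tmem176a and 1670 bp for Tmem176b, a multiple of which would also do. On simulated tables of 10940 genes, 99.9% of genes were recovered. Fragments give counting errors and the added fit with voom, which called 1999 genes at 12 h and 362 at 24 h. No column lacked a sample.

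Values of genes averaging 1 FPKM or more were fitted as log2(FPKM + 0.5) by limma 3.58.1 (R 4.3.3; 4 group means, 4 residual degrees of freedom, intensity trend). Tests were two-sided, p-values were adjusted by Benjamini-Hochberg, and the threshold was 0.05. It called 2045 genes (18.6%) at 12 h, with 479 higher (23.4% of calls; 57.3% with median-ratio scaling and 40.4% with quantile normalization), and 392 (3.57%) at 24 h. Median-ratio scaling moved the median gene at 12 h from -0.12 to 0.01, so differences at 12 h are read against that shift.

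The members, gene lists and tests were chosen with earlier results of these data known. Named genes are both members, neighbours within 100 kb averaging 1 FPKM or more (none), per list the 4 or fewer called members of smallest adjusted p (where none passed, up to 3 with the highest mean), 6 macrophage markers, and the 8 most like and 4 most opposite genes. Not every gene this rule names is described. Nlrp3, Casp1, Pycard, Il1b, Nek7, Ttn and Pdgfra were named after their values were seen. Alternatives were median-ratio scaling, quantile normalization, pseudocounts of 0.1 and 1, a filter at 0.1 FPKM or none, a replicate term, leaving out each library, other forms of the ratio, Spearman's rho and, added after seeing the data, voom and recovered fragments.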

Additional observations from a re-analysis of the deposited data

How the results depend on the processing

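The pair's MPC EV minus control differences kept their sign in all 56 combinations of a difference and an alternative setting. Leaving out a library of the other time, or adding the replicate term, cannot move a difference, so those combinations could not fail. The pair was also selected as lower. For Tmem176a the differences ranged from -2.21 to -1.99 at 12 h and from -2.01 to -1.58 at 24 h. Those of Tmem176b ranged from -2.39 to -2.16 at 12 h and from -1.90 to -1.65 at 24 h. Median-ratio scaling gave Tmem176b -2.16 at 12 h and 0.40 for the difference of the effects, which was 0.38 with quantile normalization. With single libraries left out, the difference of the effects ran from 0.11 to 0.55 for Tmem176a and from 0.40 to 0.64 for Tmem176b, 24 h minus 12 h with MPC EVs from -0.55 to -0.11 for Tmem176a, and 24 h minus 12 h in control from -1.01 to -0.77 for Tmem176b.

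The ratio of the members depends on the length used. By FPKM times exonic length it was 0.736 (MPC EV 12 h), 0.666 (control 12 h), 0.763 (MPC EV 24 h) and 0.781 (control 24 h), and by recovered fragments 0.292, 0.264, 0.302 and 0.310 in the same groups.

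Counts of called genes moved more. At 12 h they were 2045 as reported, 1284 with median-ratio scaling, 1253 with quantile normalization, 704 with no filter and 212 to 5671 with 1 library left out. At 24 h they were 392 as reported, 177 with no filter and 27 to 958 with 1 library left out. For the difference of the effects they were 0 as reported, 130 with no filter and 0 to 3668 with 1 library left out. Members of the lists called were 6 at 12 h and 4 at 24 h with no filter, and 2 to 29 at 12 h, 2 to 18 at 24 h and 0 to 21 for the difference with 1 library left out. Spearman's rho kept 1 of the 8 genes most like the pair. Of 1120 results for other named genes, 895 kept their direction and side of the threshold, 205 no longer passed, 20 newly passed and 0 reversed. The causes were not tested.

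The replicate numbers share only a number: deviations of same-numbered libraries correlated at -0.613 to 0.241 between groups. With the replicate block, 1114 genes were called at 12 h, 183 at 24 h and 6 list members at 24 h.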
